A study of Homo sapiens with 18 samples.

Results

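Doxycycline-treated 22Rv1 cells carrying a galectin-4 construct were set directly against 22Rv1-M4 cells carrying a scramble control. The comparison used 6 of the 18 bead arrays of the series: the 3 titled 22Rv1-tetO-Gal4 + Dox and the 3 titled M4-shCtrl, chosen by title alone. 22Rv1 is an established human prostate cancer cell line, and 22Rv1-M4 is a separately named line in the labels, which do not say how it was derived from 22Rv1. The 22Rv1 + Dox cells held a tetO galectin-4 construct, a kind of element that doxycycline (Dox) switches on, and are labelled as expressing galectin-4. The M4 scramble cells received a control knockdown, labelled as scramble, and no construct or Dox is named for them. The other 12 arrays were the same 22Rv1 cells without Dox, M4 cells with a galectin-4 knockdown, and LNCaP prostate cancer cells with the construct without and with Dox, each on 3 arrays. Line, construct, knockdown vector and Dox all differ between both groups compared, so their parts in a difference cannot be told apart, and no group received Dox without the construct. The labels give neither a Dox dose nor a time.

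Galectins are lectins that bind sugars holding galactose. Galectin-4, encoded by LGALS4, has a pair of sugar-binding domains on 1 chain and is made mainly by the epithelium of the digestive tract, where it takes part in sorting glycoproteins to the cell surface. Prostate luminal cells are known for genes driven by androgens, such as those of the kallikrein proteases. By its labels, the series lowered galectin-4 in 22Rv1-M4 and set out to force it in 22Rv1, and this pair asks how the RNA of both labelled states differs.

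Values are background-corrected, quantile-normalized log2 intensities, and differences are 22Rv1 + Dox minus M4 scramble. A gene was called when limma's Benjamini-Hochberg adjusted p was under 0.05 over all 13680 genes tested, two-sided. Mean raw intensity lay between 306 and 404 on the 18 arrays, and 41.9% to 45.1% of probes were above background. The correlation between arrays was 0.976 to 0.987 within 22Rv1 + Dox, 0.982 to 0.994 within M4 scramble and 0.939 to 0.964 between both groups. The median SD of a gene was 0.21 in 22Rv1 + Dox and 0.18 in M4 scramble. The other groups had lower median SDs, from 0.10 in 22Rv1 without Dox to 0.16 in LNCaP without Dox. The fit pools the spread over all 6 groups, so SEs and p-values given here also draw on those tighter groups. Replicates 2 and 3 of 22Rv1 + Dox lay at opposite ends (-23.1 and 25.4) of the main axis of variation within groups, which held 24.8% of that variation, and M4 scramble replicate 3 lay at -17.8. The labels do not say whether replicates were separate cultures. The p-values here reflect no more than the variation among arrays within groups, possibly of technical origin.

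LGALS4 was far lower in the 22Rv1 + Dox arrays, against their label of forced expression. Its level was 5.84, 5.68 and 6.00 on the 22Rv1 + Dox arrays, against 12.41, 12.46 and 12.46 on the M4 scramble arrays. The groups did not overlap, and the 22Rv1 + Dox arrays lay near the 22Rv1 arrays without Dox, which averaged 5.90 ± 0.06 (SD, n = 3). The difference was -6.60 (SE 0.21, adjusted p = 1.99e-15 by limma, 97.3-fold lower). The single LGALS4 probe averaged 5.00 ± 0.29 in M4 knockdown cells. Where this probe lies in the transcript is not given in the sources used here, so whether it can read the construct in these cells was not tested. The name 22Rv1 + Dox is therefore used below only as the title of these arrays, and no direction rests on galectin-4 having been raised in them.

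LGALS2, the gene of galectin-2, another digestive tract galectin, was also lower. It lay at 4.84, 4.55 and 4.47 in 22Rv1 + Dox, against 8.94, 8.90 and 8.51 in M4 scramble, with no overlap (difference -4.16, SE 0.15, adjusted p = 1.19e-14). It averaged 4.62 in 22Rv1 without Dox and 4.49 in M4 knockdown, so that M4 scramble was the high group. LGALS1, a widely made galectin of a single binding domain, was higher by contrast, with 11.59, 11.66 and 11.46 in 22Rv1 + Dox against 10.40, 10.27 and 10.83 in M4 scramble (difference 1.07, adjusted p = 2.16e-04). LGALSL, a galectin-related gene, was higher by 0.80. Of 10 tested galectin genes, 2 were called higher, beside 12.8% of all genes tested, and 2 lower, beside 13.5%. LGALS3BP, the gene of a galectin-binding glycoprotein, was not above background in either group, and LGALS3 did not pass the filter. C1GALT1, which makes the core O-glycan that galectins can bind, had a difference of -0.36 (adjusted p = 0.208) and was not called. With the deposited log2 matrix its difference was 0.055.

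Across all genes, 3608 of 13680 were called (26.4%), 1756 higher and 1852 lower. By at least 2-fold, 368 were called higher (2.69%) and 346 lower (2.53%), and by at least 4-fold, 69 higher (0.504%) and 89 lower (0.651%). The counts of at least 2-fold depend on background correction: without it, they were 113 higher and 124 lower. The median difference was -0.01 and the median size of a difference 0.24, beside a median SE of 0.16. The plot of gene levels shows calls at every level and in both directions. The fit on the 6 arrays alone called 2109 genes, and estimated array weights called 5833.

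**Figure D1:**
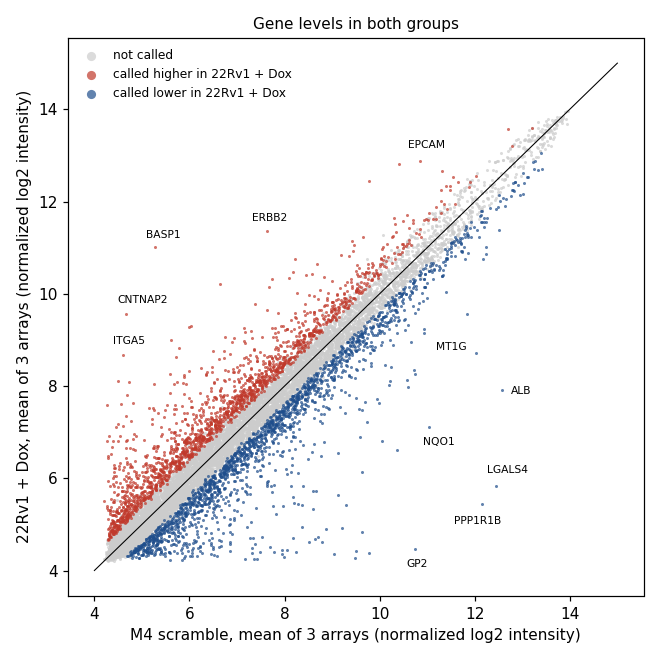
Mean normalized log2 intensity of each of 13680 genes in 22Rv1 + Dox (vertical axis) and in M4 scramble (horizontal axis), 3 arrays each; red points were called higher in 22Rv1 + Dox, blue points lower and grey points not called. LGALS4, PPP1R1B and GP2 lie far below the line of equal levels, and BASP1, ERBB2 and CNTNAP2 far above it.

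The largest rise was that of BASP1, which encodes a membrane protein of growth cones. BASP1 lay at 10.93, 10.81 and 11.30 in 22Rv1 + Dox, against 5.33, 5.39 and 5.12 in M4 scramble (difference 5.73, SE 0.33, adjusted p = 1.54e-11). CNTNAP2, a neurexin-family adhesion protein of neurons, followed with 9.52, 9.25 and 9.92 against 4.83, 4.73 and 4.46 (difference 4.89, SE 0.24). For both genes the arrays of the groups were far apart, and 22Rv1 without Dox lay between them, at 7.60 and 7.44. ITGA5, which encodes a subunit of the fibronectin receptor, was at 8.73, 8.22 and 9.08 in 22Rv1 + Dox and above background on none of 3 arrays in M4 scramble, at least 15.9-fold higher (adjusted p = 3.35e-13). Such a bound sets the bright group's mean against the higher of the lowest level above background and the probe's own level on the dim arrays. ERBB2, the gene of the receptor tyrosine kinase HER2, had 11.40, 10.98 and 11.66 in 22Rv1 + Dox against 7.73, 7.57 and 7.59 in M4 scramble (difference 3.72, SE 0.14, adjusted p = 1.26e-14), 13.2-fold higher. 22Rv1 without Dox lay much nearer to M4 scramble for ERBB2 (8.61), as for ITGA5 (5.47).

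CHRD, an antagonist of bone morphogenetic proteins, lay at 7.81, 7.81 and 7.78 in 22Rv1 + Dox, against 4.54, 4.82 and 4.73 in M4 scramble (difference 3.11). POU3F2, a neural transcription factor, stood at 8.62, 8.71 and 9.14 against 5.86, 5.96 and 5.53 (difference 3.04). CHRD was at 4.80 and POU3F2 at 6.19 in 22Rv1 without Dox, near the M4 scramble level. EFHD1, a mitochondrial calcium-binding protein, differed by 2.92. For PALM, a membrane protein of the cytoskeleton, the rise was at least 10.7-fold, but another PALM probe differed by 0.66. SERHL2, a serine hydrolase-like gene, was at least 7.41-fold higher.

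A further group of rises already stood at a similar level in 22Rv1 cells without Dox. NMB, which encodes the bombesin-like peptide neuromedin B, lay at 9.11, 9.32 and 9.43 in 22Rv1 + Dox, against 6.06, 5.67 and 6.23 in M4 scramble (difference 3.30), and averaged 9.65 in 22Rv1 without Dox. ADA2, a secreted adenosine deaminase, was at 8.12, 7.78 and 8.36 against 4.85, 4.97 and 4.36 (difference 3.36), and averaged 8.32 without Dox. RAC2, a small GTPase best known from blood cells, differed by 3.04, with 7.60 in 22Rv1 + Dox, 4.56 in M4 scramble and 7.46 in 22Rv1 without Dox. KRT19, a keratin of simple epithelia, differed by 3.27, with 9.23, 8.99 and 9.68 in 22Rv1 + Dox against 6.07, 6.04 and 5.98 in M4 scramble. For these 4 genes M4 scramble lay below both 22Rv1 groups. M4 knockdown differed among them, with KRT19 at 11.29 and NMB at 5.97, the latter near its M4 scramble level.

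The largest fall was that of PPP1R1B, which encodes DARPP-32, an inhibitor of protein phosphatase 1. PPP1R1B lay at 5.49, 5.41 and 5.43 in 22Rv1 + Dox, against 12.16, 12.20 and 12.09 in M4 scramble (difference -6.71, SE 0.14, adjusted p = 3.57e-19). Its other probes also read lower in 22Rv1 + Dox but disagreed in size, at -0.58 and -2.35. GP2, a membrane glycoprotein of pancreatic zymogen granules, was above background on none of the 22Rv1 + Dox arrays and at 10.64, 10.82 and 10.78 in M4 scramble, at least 66.0-fold lower (adjusted p = 3.57e-19). DAPL1, named for its likeness to a death-associated protein, was at least 33.8-fold lower, and MAGEC2, a cancer-testis antigen, at least 27.4-fold lower. These 4 genes were also low in 22Rv1 without Dox, with means between 4.35 and 6.19.

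GSTA1, an alpha-class glutathione transferase, was at least 27.9-fold lower, with 9.60, 9.44 and 9.47 in M4 scramble. GSTA2, its close paralog, whose probes may share signal with it, lay at 4.92, 4.44 and 4.72 in 22Rv1 + Dox against 8.64, 8.28 and 8.98 in M4 scramble (difference -3.94). The groups were apart for both genes on every array. TM4SF1, a cell surface protein, differed by -4.79, WIF1, a secreted WNT inhibitor, by -3.97, and KCNG1, a potassium channel subunit, by -3.96. GASK1B, a Golgi kinase-like gene, was at least 20.3-fold lower, with its other probes at -3.55 and -0.70. All of these stood low in 22Rv1 without Dox as well, as the plot of named genes shows. NQO1, a quinone reductase, lay at 6.92, 7.30 and 7.12 against 11.10, 10.98 and 11.05 (difference -3.93), and averaged 7.89 in 22Rv1 without Dox.

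ALB and SPOCK2 followed another pattern, since 22Rv1 without Dox was high. ALB, the gene of serum albumin, lay at 7.86, 8.18 and 7.73 in 22Rv1 + Dox, against 12.59, 12.49 and 12.64 in M4 scramble (difference -4.65, SE 0.17, adjusted p = 1.15e-14), and averaged 13.48 ± 0.01 in 22Rv1 without Dox. Another ALB probe differed by -5.14. SPOCK2, an extracellular proteoglycan, lay at 4.77, 4.91 and 5.10 against 9.20, 9.08 and 9.33 (difference -4.28), and averaged 7.79 in 22Rv1 without Dox. The 22Rv1 + Dox arrays were the low ones for both genes.

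**Figure D2:**
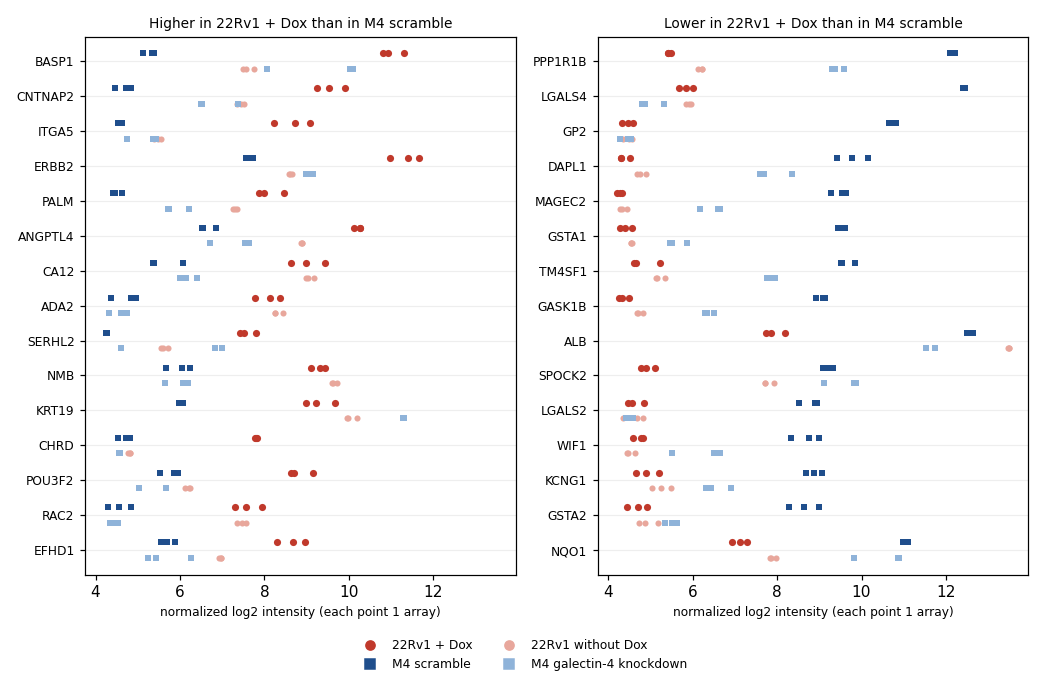
Normalized log2 intensity on each array for the 15 called genes with the largest rise (left) and the 15 with the largest fall (right) whose arrays did not overlap; red circles are 22Rv1 + Dox and blue squares M4 scramble, with 22Rv1 without Dox and M4 knockdown drawn paler just below. ITGA5, CHRD, POU3F2 and ERBB2 are high mainly in 22Rv1 + Dox, whereas LGALS4, GP2 and MAGEC2 are high in M4 scramble and low in both 22Rv1 groups.

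Neighbouring comparisons share these arrays, so their values are set side by side only as descriptions. Dox minus no Dox in 22Rv1 was 2.74 for ERBB2, 3.00 for CHRD, -0.37 for NMB, -0.06 for LGALS4 and -5.56 for ALB. M4 scramble minus 22Rv1 without Dox was -0.97 for ERBB2, -0.11 for CHRD, -3.67 for NMB, 6.54 for LGALS4 and -0.91 for ALB. ERBB2 and CHRD thus differed mainly on the Dox side of 22Rv1, and NMB and LGALS4 mainly on the M4 side. The knockdown minus scramble values in M4 were -7.45 for LGALS4, -6.32 for GP2, -3.01 for MAGEC2 and 4.11 for BASP1. Of all genes, 24.8% were called in the Dox comparison, 35.4% in M4 scramble against 22Rv1 without Dox and 23.3% in knockdown against scramble.

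Several genes of liver-type secreted proteins were lower in 22Rv1 + Dox. Of 19 tested genes of liver-type secreted proteins, 9 were called lower (47.4%), beside 13.5% of all genes, and 1 higher, with a median difference of -0.38. A gene can pass the filter for probes above background through the groups where it is high. Without that filter, 10 of 38 were lower and 1 higher, with a median of -0.03. Of all 20041 genes in that fit, 1832 were lower and 1683 higher. APOA1, the main protein of high-density lipoprotein, lay at 4.50, 4.72 and 4.62 in 22Rv1 + Dox against 6.88, 6.53 and 7.13 in M4 scramble (difference -2.23, adjusted p = 1.43e-09). Coagulation factor V, F5, lay at 4.82, 4.34 and 4.57 against 7.24, 7.42 and 7.45 (difference -2.79), and AFP, the fetal counterpart of albumin, was at least 2.56-fold lower. All 4 fixed liver markers (ALB, AFP, APOA1 and TTR) were above background on every M4 scramble array, but only ALB was so on every 22Rv1 + Dox array. APOH, a plasma phospholipid-binding protein, differed by 0.70, a call lost on the 6 arrays alone and without 22Rv1 Dox replicate 1 or 2 or M4 scramble replicate 2.

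Transcription factors of liver and gut lineages moved both ways. Of 16 tested, 5 were called higher (31.25%) and 6 lower (37.5%), beside 12.8% and 13.5% of all genes. FOXA2, a forkhead factor of endoderm, was above background on none of the 22Rv1 + Dox arrays and at 7.61, 7.31 and 7.01 in M4 scramble, at least 6.08-fold lower (adjusted p = 3.35e-13). NR5A2, a nuclear receptor of liver and pancreas, lay at 4.86, 5.15 and 5.14 in 22Rv1 + Dox against 7.48, 7.32 and 7.09 in M4 scramble (difference -2.25), and another probe differed by -2.15. SOX9, a progenitor factor, lay at 7.40, 7.33 and 7.92 against 9.12, 9.42 and 8.98 (difference -1.62). The arrays of the groups did not overlap for these 3 factors, and 22Rv1 without Dox lay near 22Rv1 + Dox for each, at 4.31, 4.87 and 7.25. KLF5 differed by -1.64, whereas GATA2, a zinc finger factor, was higher by 1.18.

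Of 19 intestinal epithelial genes, 6 were called lower (31.6%), beside 13.5% of all genes, and 1 higher. Without 22Rv1 Dox replicate 1, or on the 6 arrays alone, 4 were lower. Without the filter for probes above background, 7 of 29 were lower, beside 1832 of all 20041 genes. The median was then -0.05, beside -0.20 with the filter. MUC13, a membrane mucin, lay at 5.60, 5.75 and 5.84 in 22Rv1 + Dox against 8.54, 8.98 and 8.43 in M4 scramble (difference -2.92). CDH17, the cadherin of intestinal epithelium, lay at 5.63, 5.28 and 5.55 against 7.39, 7.23 and 6.78 (difference -1.64, adjusted p = 9.34e-08), and averaged 7.81 in 22Rv1 without Dox. Both were high in M4 scramble and also in 22Rv1 without Dox. The trefoil peptide gene TFF2 was the rise, by 1.59.

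Among cadherins and genes of epithelial-mesenchymal change, 3 of 21 were called higher (14.3%) and 6 lower (28.6%). Of all genes, 12.8% were higher and 13.5% lower. Without 22Rv1 Dox replicate 2, 5 were higher. EPCAM, the epithelial adhesion molecule, lay at 12.84, 12.79 and 13.03 in 22Rv1 + Dox against 10.82, 10.58 and 11.13 in M4 scramble (difference 2.04, SE 0.15, adjusted p = 1.23e-09), with its other probes at 2.37 and 2.32. CDH2, the gene of N-cadherin, lay at 5.46, 5.81 and 6.25 against 8.54, 8.56 and 8.07 (difference -2.55, SE 0.18, adjusted p = 5.96e-10). The arrays did not overlap for either gene, and CDH2 was highest in 22Rv1 without Dox, at 10.03 ± 0.06. VIM, which encodes vimentin, differed by -0.89, with another probe at -1.96. CDH1, the gene of E-cadherin, had 10.14, 9.69 and 10.58 in 22Rv1 + Dox against 9.57, 9.91 and 9.40 in M4 scramble and missed the threshold (difference 0.51, adjusted p = 0.0513). SNAI2 was not above background in either group.

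Of 31 genes of tight, adherens and desmosomal junctions, 7 were called higher (22.6%) and 3 lower (9.68%), beside 12.8% and 13.5% of all genes. CGN, which encodes the tight junction protein cingulin, lay at 10.73, 10.26 and 10.97 in 22Rv1 + Dox against 8.86, 8.62 and 8.56 in M4 scramble (difference 1.97). DSP, the gene of desmoplakin, differed by 1.31, though another probe gave 0.23, and CLDN11 by 1.99. CLDN1, another claudin, was at least 6.91-fold lower, and NECTIN3, an adhesion protein of adherens junctions, lay at 7.63, 7.81 and 6.79 against 9.34, 8.92 and 9.52 (difference -1.85). Members of 1 junction type therefore differed in opposite directions. Among the keratins, KRT8 was lower (-0.76, adjusted p = 6.16e-04), KRT7 higher (0.91), and KRT18, the partner of KRT8, was not called (0.32, adjusted p = 0.218), and -0.085 by the mean of its probes.

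**Figure D3:**
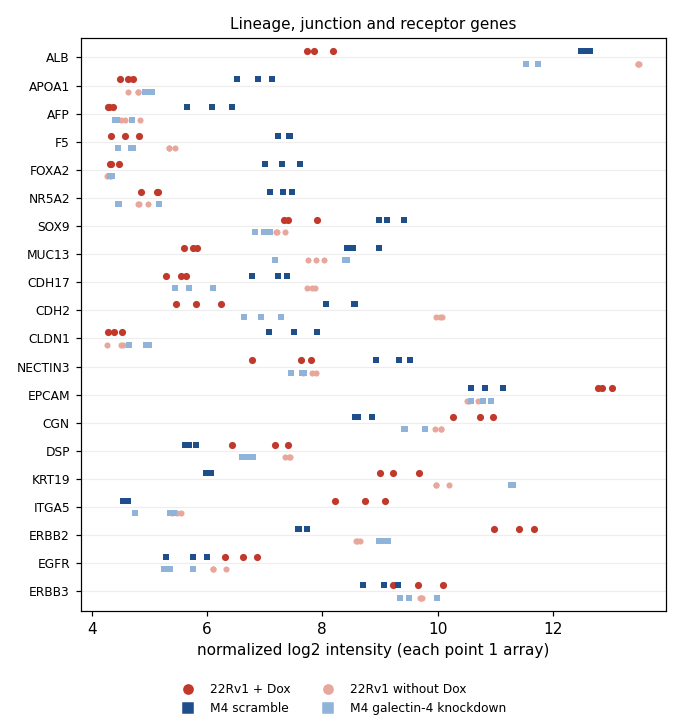
Normalized log2 intensity on each array for 20 lineage, junction and receptor genes described in the text, selected after their values were seen; red circles are 22Rv1 + Dox and blue squares M4 scramble, with 22Rv1 without Dox and M4 knockdown drawn paler just below. ALB and CDH2 are lowest in 22Rv1 + Dox, and ITGA5, ERBB2 and EPCAM are highest there.

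Metallothioneins are small cysteine-rich proteins that bind zinc, copper and cadmium, and the zinc-sensing factor MTF1 is known to switch their genes on through metal response elements. All 7 genes called among the 8 metallothionein genes tested were lower in 22Rv1 + Dox, each by at least 2-fold, beside 2.53% of all genes. MT1G lay at 8.52, 8.97 and 8.65 in 22Rv1 + Dox against 12.21, 12.24 and 11.63 in M4 scramble (difference -3.31, SE 0.40, adjusted p = 2.00e-06). MT2A lay at 9.30, 9.53 and 9.86 against 11.90, 12.02 and 11.63 (difference -2.28, SE 0.44, adjusted p = 4.78e-04), and MT1X at 7.82, 8.45 and 8.04 against 9.83, 9.99 and 10.81 (difference -2.10). Every 22Rv1 + Dox array lay below every M4 scramble array for these 3 genes. MT1E differed by -2.38 and MT1F by -2.69. MT1H differed by -3.75, but another MT1H probe gave -0.53. MT1M was at least 9.42-fold lower, with M4 scramble arrays at 8.98, 9.33 and 5.50, of which replicate 3 was far below the others. MT3 was not called (-0.09). Metallothionein genes are near-identical copies, so their probes may share signal and the 7 calls are not separate observations.

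The level order of metallothioneins across groups differed from that of LGALS4. In 22Rv1 without Dox, MT1G averaged 11.38 and MT2A 10.09, above their 22Rv1 + Dox means of 8.72 and 9.56. In M4 knockdown they averaged 6.40 ± 1.47 and 7.20 ± 1.63 (SD, n = 3), the lowest of these groups and widely spread, with MT1G at 5.48, 5.63 and 8.09 on its arrays. Of the whole list of metallothioneins and zinc transporters, 7 of 19 were lower (36.8%) and 1 higher (5.26%). The shares of all genes were 13.5% and 12.8%. The rise was that of the zinc transporter SLC39A6 (0.51), a call lost on the 6 arrays alone and without 22Rv1 Dox replicate 1 or 3 or M4 scramble replicate 1.

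RefSeq promoters (GRCh38.p14, 250 bases before to 50 after the start) matched 3 of the 8 metallothionein genes tested, and are shown because these members moved together. Capitals mark the core letters TGCACNC or TGCGCNC on either strand, merged where they overlap, as a description of the letters and not of binding. MT2A is at chr16:56608334-56608633, MT1H at chr16:56669564-56669863 and MT1X at chr16:56682220-56682519, all on the plus strand.
MT2A: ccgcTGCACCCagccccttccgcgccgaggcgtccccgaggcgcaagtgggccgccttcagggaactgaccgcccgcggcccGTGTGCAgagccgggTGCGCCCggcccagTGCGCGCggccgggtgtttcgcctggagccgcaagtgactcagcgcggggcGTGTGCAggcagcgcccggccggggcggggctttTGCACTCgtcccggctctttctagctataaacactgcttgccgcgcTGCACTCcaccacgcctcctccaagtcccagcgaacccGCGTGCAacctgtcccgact
MT1H: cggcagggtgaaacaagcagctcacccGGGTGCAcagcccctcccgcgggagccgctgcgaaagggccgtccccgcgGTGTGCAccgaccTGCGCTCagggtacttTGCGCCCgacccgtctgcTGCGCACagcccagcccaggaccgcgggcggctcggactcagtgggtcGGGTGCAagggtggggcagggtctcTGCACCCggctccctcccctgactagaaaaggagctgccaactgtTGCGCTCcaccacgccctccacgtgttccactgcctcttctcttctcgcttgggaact
MT1X: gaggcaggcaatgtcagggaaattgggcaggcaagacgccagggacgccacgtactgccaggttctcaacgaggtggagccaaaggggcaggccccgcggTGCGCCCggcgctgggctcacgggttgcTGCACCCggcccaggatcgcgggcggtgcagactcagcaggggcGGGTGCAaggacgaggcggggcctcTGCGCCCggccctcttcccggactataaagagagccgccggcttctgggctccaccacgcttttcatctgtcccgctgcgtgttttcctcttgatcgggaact
These windows held 8, 8 and 4 matches in the order shown. Of 35116 promoters of this length, 29.6% held at least 1 match and 1.63% at least 3.

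Of the 47 lists, genes of hypoxia and glycolysis had the largest share of rises, except without 22Rv1 Dox replicate 1 or M4 scramble replicate 1, where the ERBB list had a larger one (7 and 6 of 12, against 22 and 21 of 45). Oxygen shortage stabilizes HIF-1, which is known to raise genes of glucose uptake, glycolysis and angiogenesis. Of 45 members tested, 27 were called higher in 22Rv1 + Dox (60.0%), beside 12.8% of all genes, and 2 lower, with a median difference of 0.52 beside -0.01 over all genes. ANGPTL4, an inhibitor of lipoprotein lipase, lay at 10.27, 10.26 and 10.11 in 22Rv1 + Dox against 6.54, 6.53 and 6.85 in M4 scramble (difference 3.57, SE 0.17, adjusted p = 1.19e-12), with its other probes at 0.84 and 1.81. CA12, a membrane carbonic anhydrase, lay at 8.98, 8.62 and 9.43 against 5.36, 5.38 and 6.08 (difference 3.40, SE 0.19, adjusted p = 9.60e-12). Both separated the groups, but CA12 was as high in 22Rv1 without Dox (9.06).

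Some of the glycolytic enzymes rose and others were not called. PFKP, a phosphofructokinase, lay at 6.76, 6.70 and 7.31 in 22Rv1 + Dox against 4.81, 4.49 and 4.32 in M4 scramble (difference 2.38), and ALDOC, an aldolase, at 11.06, 10.90 and 11.74 against 9.57, 9.56 and 9.85 (difference 1.58). Among further called members, chosen for their roles after their values were seen, hexokinase genes HK2 and HK1 differed by 1.27 and 1.18, the glucose transporter gene SLC2A1 by 0.91, LDHA by 0.87 and PGK1 by 0.86. GPI, PFKM, ALDOA and ENO1 were called higher too, by 0.89, 0.82, 0.57 and 0.41. Other enzymes of the same path were not called, with differences of -0.05 for TPI1, 0.03 for GAPDH, 0.31 for PGAM1, 0.36 for PKM, 0.38 for ENO2 and 0.41 for PFKL. VEGFA, the main angiogenic growth factor, lay at 8.58, 8.18 and 8.59 against 7.23, 6.75 and 7.39 (difference 1.33), with 6.73 in 22Rv1 without Dox. BHLHE40, a transcriptional repressor, was at least 2.91-fold higher. BHLHE41, a related repressor, went the other way, at 6.58, 6.85 and 6.98 against 8.55, 8.57 and 7.86 (difference -1.52), as did STC1 (-0.65), a secreted glycoprotein hormone.

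Promoters of 41 of the 45 members were in the RefSeq table. ACGTG on either strand, 1 form of the core letters of the hypoxia response element, was found in 21. Other forms of the core were not searched. ACGTG also lies within the E-box CACGTG, and a palindrome read on both strands was counted as 1 match. Of the 25 members called higher with a promoter, 12 held a match, and of the other 16, 9 did, beside 21.4% of all promoters. Matches to ACGTG were thus no more frequent among the members called higher than among the others. The windows of the 3 largest rises that held a match are shown: ANGPTL4 at chr19:8363905-8364204 (plus strand), BHLHE40 at chr3:4979187-4979486 (plus strand) and ALDOC at chr17:28576846-28577145 (minus strand), with matches in capitals.
ANGPTL4: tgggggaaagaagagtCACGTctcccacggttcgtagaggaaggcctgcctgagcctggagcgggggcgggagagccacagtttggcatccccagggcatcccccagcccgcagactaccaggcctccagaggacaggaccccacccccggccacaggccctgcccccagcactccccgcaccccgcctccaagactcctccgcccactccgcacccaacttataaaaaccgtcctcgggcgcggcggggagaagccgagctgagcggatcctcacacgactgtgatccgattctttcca
BHLHE40: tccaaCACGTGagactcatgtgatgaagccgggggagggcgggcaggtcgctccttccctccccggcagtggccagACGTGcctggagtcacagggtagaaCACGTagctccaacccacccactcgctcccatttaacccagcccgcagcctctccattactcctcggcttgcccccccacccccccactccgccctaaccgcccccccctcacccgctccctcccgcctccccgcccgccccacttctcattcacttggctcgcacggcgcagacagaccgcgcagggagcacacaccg
ALDOC: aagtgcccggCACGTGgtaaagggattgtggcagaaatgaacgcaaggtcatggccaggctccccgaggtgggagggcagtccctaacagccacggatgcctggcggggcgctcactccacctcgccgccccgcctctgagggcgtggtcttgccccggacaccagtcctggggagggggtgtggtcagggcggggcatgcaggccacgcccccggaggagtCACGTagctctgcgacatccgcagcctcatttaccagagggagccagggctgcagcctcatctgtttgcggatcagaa
They held 1, 3 and 2 matches in the order shown. The windows of CA12 and PFKP, also among the 5 largest rises, held these letters nowhere.

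**Figure D4:**
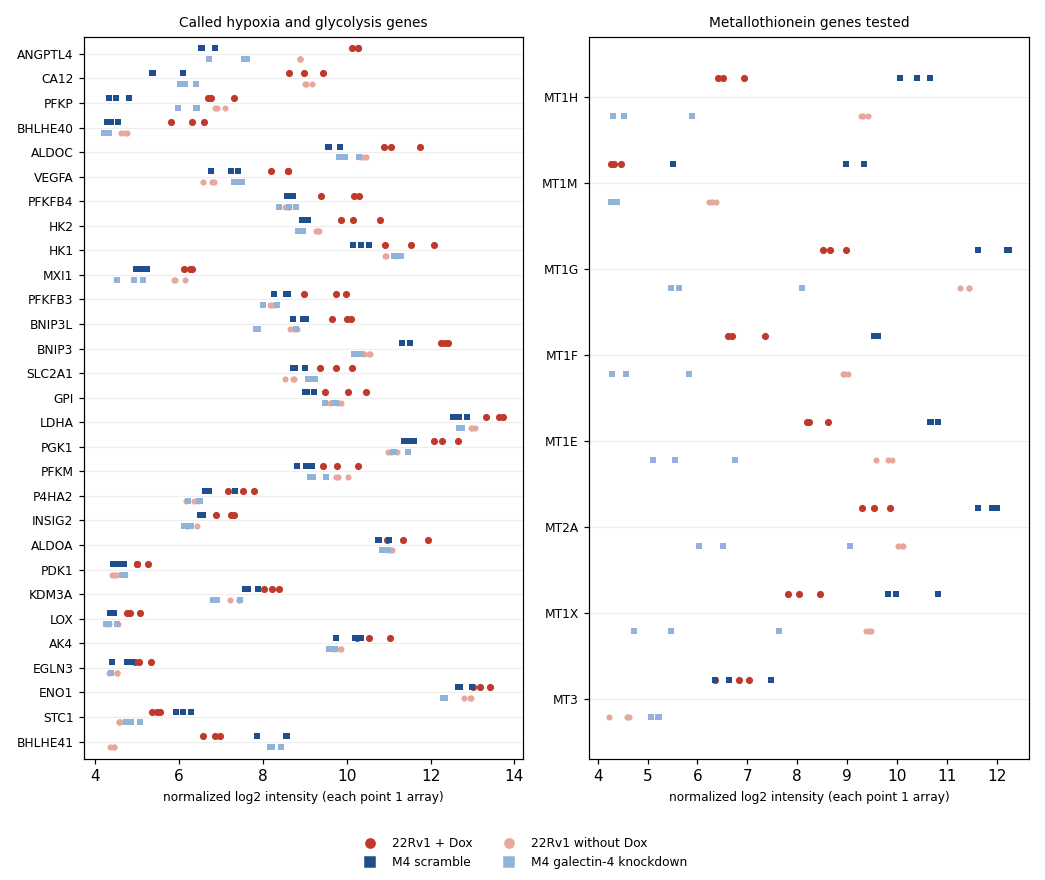
Normalized log2 intensity on each array for the 29 called hypoxia and glycolysis genes (left) and the 8 metallothionein genes tested (right); red circles are 22Rv1 + Dox and blue squares M4 scramble, with 22Rv1 without Dox and M4 knockdown drawn paler just below. All but 2 of the hypoxia genes are higher in 22Rv1 + Dox than in M4 scramble, and 7 of the metallothionein genes are lower.

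Receptors and signalling genes were next. The ERBB family, receptors of epidermal growth factor and its relatives, had 6 of 12 genes called higher and 1 lower, with a median of 0.46. These were 50% and 8.33%, beside 12.8% and 13.5% of all genes. Higher calls numbered 4 without M4 scramble replicate 3 and 7 without 22Rv1 Dox replicate 1. They numbered 5 without 22Rv1 Dox replicate 3, on the 6 arrays alone or by the mean of a gene's probes. Beside ERBB2, its neighbour and adaptor GRB7 lay at 7.50, 7.20 and 7.55 in 22Rv1 + Dox against 6.78, 6.49 and 6.36 in M4 scramble (difference 0.88, adjusted p = 1.69e-04). EGFR was higher by 0.92 (adjusted p = 7.32e-04), but another probe gave -0.34 and the call was lost by the mean of its probes. ERBB3 differed by 0.63 (adjusted p = 0.0174) with overlapping arrays, its other probes gave -0.32 and -0.45, and by the mean of its probes the difference was -0.047. ERRFI1, a feedback inhibitor of EGFR, was the fall (-0.70).

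Of 15 genes of insulin-like growth factor signalling, 6 were called higher (40%) and 1 lower (6.67%), beside 12.8% and 13.5% of all genes. IRS2, an insulin receptor adaptor, lay at 8.90, 8.84 and 9.46 in 22Rv1 + Dox against 6.73, 6.92 and 6.61 in M4 scramble (difference 2.31, SE 0.22, adjusted p = 4.68e-08), and IRS1, a related adaptor, differed by 1.14. IGFBP3, a binding protein that holds these factors in the circulation, lay at 8.47, 8.47 and 8.25 against 6.43, 6.29 and 5.99 (difference 2.16), and was higher still in 22Rv1 without Dox, at 11.10. The RNA-binding proteins IGF2BP3 and IGF2BP2 were higher by 0.99 and 0.87. IGF1R did not pass the filter.

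Protein kinase A and C genes with their scaffolds had 11 of 29 called higher (37.9%) and 2 lower (6.90%), with a median of 0.16. The shares of all genes were 12.8% and 13.5%. PRKCH, a protein kinase C that needs no calcium, lay at 6.05, 5.93 and 6.18 in 22Rv1 + Dox against 4.81, 4.82 and 4.39 in M4 scramble (difference 1.38), and the phosphodiesterase gene PDE4D differed by 1.25. PRKCB lay at 8.13, 9.28 and 7.49 against 7.20, 6.63 and 6.93 (difference 1.38). Its highest array was 22Rv1 + Dox replicate 2, PRKCB was among the genes at 1 end of the within-group axis, and the call was lost without that array (0.89, adjusted p = 0.0947) or without M4 scramble replicate 2. AKAP7, a scaffold of protein kinase A, was lower (-2.58), and its other probe gave -0.81.

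WNT and Notch genes had 12 of 39 called higher (30.8%) and 6 lower (15.4%), beside 12.8% and 13.5% of all genes. NOTCH3, a Notch receptor, lay at 7.73, 7.18 and 7.89 in 22Rv1 + Dox against 5.46, 5.85 and 5.78 in M4 scramble (difference 1.90), and JAG2, a Notch ligand, differed by 1.22. NKD2, an inhibitor of WNT signalling, was at least 4.32-fold higher, whereas the inhibitor WIF1 fell as given above and the receptor FZD5 fell (-1.22). Of 34 genes of the BMP and TGF-beta pathways, 6 were higher (17.6%) and 8 lower (23.5%). Without 22Rv1 Dox replicate 3 or without M4 scramble replicate 3, 5 were lower. CCN2, a matrix protein induced by TGF-beta, lay at 5.43, 5.38 and 5.44 in 22Rv1 + Dox against 8.64, 8.30 and 8.14 in M4 scramble (difference -2.95). BAMBI, a decoy receptor, differed by -1.37, and TGFB3, a ligand, by 1.71.

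Ephrins and their receptors, which signal between touching cells, had 5 of 16 called higher (31.25%) and 6 lower (37.5%). Without 22Rv1 Dox replicate 1 or M4 scramble replicate 2, 3 were higher. Without 22Rv1 Dox replicate 3 or M4 scramble replicate 1, 2 were higher. EFNB3 lay at 7.20, 7.05 and 7.48 in 22Rv1 + Dox against 4.67, 4.65 and 4.98 in M4 scramble (difference 2.48). Its relative EFNB2 was lower (-1.03), and the receptor EPHB3 was at least 2.59-fold lower. Of 16 integrin subunits, 2 were higher (12.5%) and 3 lower (18.8%), near the 12.8% and 13.5% of all genes, and 1 was lower without M4 scramble replicate 2 or on the 6 arrays alone. Beside ITGA5, ITGB5 was higher by 0.97. Among 40 matrix genes, 9 were higher (22.5%) and 6 lower (15%). The rises were led by the proteoglycan gene BGN, at 6.66, 6.41 and 6.87 in 22Rv1 + Dox against 4.72, 5.04 and 4.50 in M4 scramble (difference 1.89). DCN, another proteoglycan gene and a fibroblast marker, was at least 2.73-fold lower. Of the proteases and their inhibitors, the serine protease gene PRSS23 lay at 10.10, 10.35 and 10.55 against 8.14, 7.82 and 8.29 (difference 2.25), and the inhibitor SPINT2 at 10.86, 10.93 and 10.77 against 12.19, 12.19 and 12.36 (difference -1.40).

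Prostate luminal and androgen-regulated genes moved both ways, 11 of 30 called higher (36.7%) and 8 lower (26.7%), with a median of 0.01. Of all genes, 12.8% were higher and 13.5% lower. FOLH1, the gene of prostate-specific membrane antigen, lay at 5.37, 5.44 and 5.25 in 22Rv1 + Dox against 7.17, 7.75 and 7.30 in M4 scramble (difference -2.05, SE 0.18, adjusted p = 1.46e-08). SLC45A3, which encodes the transporter prostein, lay at 5.83, 5.84 and 5.80 against 7.60, 7.69 and 7.84 (difference -1.88). Both were lower on every 22Rv1 + Dox array, and FOLH1 averaged 7.76 in 22Rv1 without Dox. KLK2, a kallikrein protease gene, went the other way, with 6.45, 6.24 and 6.41 against 5.44, 5.26 and 5.76 (difference 0.88, adjusted p = 3.60e-04). PMEPA1, an androgen-induced membrane protein, differed by 1.65, KLK15 was at least 2.99-fold higher, and TARP at least 5.38-fold higher. HOXB13, a homeobox factor that marks prostate, was lower (-1.17). KLK3 was not above background in either group. Of the 10 prostate luminal markers 8 passed the filter, 7 above background on all 22Rv1 + Dox arrays and 6 on all M4 scramble arrays. All 4 markers of simple epithelium were above background on every array of both groups. No basal marker passed, and of 4 immune markers CD14 and CD68 did.

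Chaperones of the endoplasmic reticulum and genes of the unfolded protein response had many falls. This response raises chaperones when misfolded protein builds up in the reticulum. Of 27 tested, 16 were called lower (59.3%), beside 13.5% of all genes, and 2 higher, with a median of -0.40. Lower calls numbered 9 without 22Rv1 Dox replicate 1 or without M4 scramble replicate 3, and 6 on the 6 arrays alone. In these fits the share was below that of liver-type secreted proteins, of which 9 of 19 were lower each time. CRELD2 lay at 10.33, 10.19 and 10.64 in 22Rv1 + Dox against 11.27, 11.38 and 11.32 in M4 scramble (difference -0.94), and HYOU1, a chaperone, at 7.57, 7.14 and 7.78 against 8.21, 8.37 and 8.66 (difference -0.91). CALR, which encodes calreticulin, differed by -0.83, and DERL2, of the export of misfolded proteins, by -0.98. XBP1, a transcription factor of the response, was the exception named here, higher by 0.83.

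Of 37 amino acid genes of the integrated stress response, 6 were called higher (16.2%) and 10 lower (27%). Of all genes, 12.8% were higher and 13.5% lower, so the share of rises was near that of all genes. Without 22Rv1 Dox replicate 3, 3 were higher, and on the 6 arrays alone 3 were higher and 4 lower. SLC7A5, the large neutral amino acid transporter LAT1, lay at 12.45, 11.97 and 12.89 in 22Rv1 + Dox against 9.92, 9.73 and 9.69 in M4 scramble (difference 2.65, SE 0.16, adjusted p = 6.98e-11). SLC3A2, its partner chain, lay at 10.41, 10.42 and 10.68 against 9.51, 9.64 and 9.37 (difference 1.00). Both chains of this transporter were higher on every 22Rv1 + Dox array. SLC1A4, another amino acid transporter, was lower (-0.81), as was NUPR1, a stress-induced nuclear protein (-0.79).

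Nuclear genes of mitochondria were lower more often than higher. Mitochondrial ribosomal protein genes had 29 of 76 called lower (38.2%) and 2 higher (2.63%), with a median of -0.34. Oxidative phosphorylation subunits had 18 of 71 lower (25.4%) and 2 higher (2.82%), with a median of -0.28. Of all genes, 13.5% were lower and 12.8% higher. The counts of lower calls moved with single arrays, to 19, 17 and 18 for the mitochondrial ribosome without 22Rv1 Dox replicate 1, 22Rv1 Dox replicate 3 or M4 scramble replicate 1, and to 11 for oxidative phosphorylation without 22Rv1 Dox replicate 1. MRPL49 lay at 7.44, 7.54 and 7.51 in 22Rv1 + Dox against 8.38, 8.59 and 8.31 in M4 scramble (difference -0.93), and NDUFA6, a subunit of complex I, at 9.46, 9.87 and 9.14 against 10.24, 10.28 and 10.66 (difference -0.90). Differences in these lists were small, with none of the falls reaching 2-fold. Cytosolic ribosomal protein genes had 3 of 69 higher (4.35%) and 4 lower (5.80%), with a median of -0.01. When any of the 6 arrays other than 22Rv1 Dox replicate 2 was left out, 1 or 2 were lower.

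Genes of DNA replication and the G1/S step had 15 of 53 called lower (28.3%) and 1 higher (1.89%), with a median of -0.28. Without 22Rv1 Dox replicate 3, 23 were lower. TK1, thymidine kinase, lay at 8.69, 8.65 and 8.98 in 22Rv1 + Dox against 9.81, 10.02 and 9.83 in M4 scramble (difference -1.11), and MCM5, of the replicative helicase, differed by -0.73. CDK6, a G1 kinase, was the rise, by 1.07. Of 59 G2/M genes 3 were higher (5.08%) and 7 lower (11.9%), beside 12.8% and 13.5% of all genes. Without 22Rv1 Dox replicate 1, 3 were lower, without M4 scramble replicate 2, 4 were lower, and without 22Rv1 Dox replicate 2, 5 were higher. Clustered histone genes had 17 of 42 lower (40.5%), with a median of -0.36, and 10 lower on the 6 arrays alone. H4C8 lay at 6.10, 6.39 and 5.36 in 22Rv1 + Dox against 7.57, 7.39 and 7.98 in M4 scramble (difference -1.70) and H4C5 at 6.68, 7.34 and 6.13 against 8.37, 8.11 and 8.71 (difference -1.68). Histone genes are near-identical copies, so their probes may share signal. Small noncoding RNAs, of which 11 of 43 were lower (25.6%), varied most with single arrays. Lower calls numbered 2 without 22Rv1 Dox replicate 3, 4 without M4 scramble replicate 1 and 18 without 22Rv1 Dox replicate 2.

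Of 29 genes of fatty acid synthesis and storage, 11 were called higher (37.9%) and 3 lower (10.3%), with a median of 0.17. The shares of all genes were 12.8% and 13.5%. However, 5 were higher without 22Rv1 Dox replicate 3 and 6 without M4 scramble replicate 3. SREBF1, which encodes the main transcription factor of this pathway, lay at 9.51, 8.77 and 9.52 in 22Rv1 + Dox against 7.81, 8.00 and 7.62 in M4 scramble (difference 1.46), with other probes at 0.17 and 1.44. SCD, the desaturase, lay at 12.64, 12.23 and 13.11 against 11.42, 11.47 and 11.08 (difference 1.34), ACLY differed by 0.94 and FASN by 0.95, the last a call lost without 22Rv1 Dox replicate 3. Cholesterol genes had 2 of 25 higher (8%), including SCD, and 7 lower (28%). There were 4 higher without 22Rv1 Dox replicate 2 or M4 scramble replicate 2, and 5 lower by the mean of a gene's probes. DHCR7, the last step to cholesterol, lay at 9.34, 9.08 and 9.72 against 10.21, 10.24 and 10.09 (difference -0.80), and EBP, an isomerase upstream of it, differed by -0.76.

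Steroid and xenobiotic enzymes had 12 of 34 called lower (35.3%) and 5 higher (14.7%), beside 13.5% and 12.8% of all genes. Without 22Rv1 Dox replicate 3, 8 were higher. AKR1C3, which makes active androgens, lay at 9.35, 9.54 and 8.58 in 22Rv1 + Dox against 11.07, 10.79 and 10.92 in M4 scramble (difference -1.77), and AKR1C2 at 5.91, 6.01 and 5.67 against 7.69, 7.76 and 7.90 (difference -1.92). AKR1C2 averaged 10.87 in 22Rv1 without Dox, above both groups, and probes of this family may share signal. INMT, a methyltransferase, was at least 2.74-fold higher. Of 26 NRF2 targets and glutathione genes, 4 were higher (15.4%) and 6 lower (23.1%). GCLC, the rate-limiting enzyme of glutathione synthesis, rose by 1.11, while NQO1 fell as above and ABCC3, an organic anion exporter, was at least 9.42-fold lower.

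Enzymes that build O-glycans and add sialic acid, which shape the sugars that galectins meet, had 11 of 46 called lower and 4 higher. These were 23.9% and 8.70%, beside 13.5% and 12.8% of all genes. ST6GALNAC1, which makes sialyl-Tn, was above background on none of the 22Rv1 + Dox arrays and at 7.88, 7.85 and 8.21 in M4 scramble, at least 9.67-fold lower (adjusted p = 5.10e-15). GCNT1, which branches the core O-glycan, lay at 5.02, 5.42 and 5.21 in 22Rv1 + Dox against 8.08, 7.93 and 7.42 in M4 scramble (difference -2.59), with another probe at -1.29. GNE, the first enzyme of sialic acid synthesis, lay at 5.40, 5.89 and 6.21 against 7.59, 7.54 and 7.77 (difference -1.80). GCNT3, a related branching enzyme, was at least 2.49-fold higher, and ST3GAL5, which makes the ganglioside GM3, was higher, with means of 7.20 in 22Rv1 + Dox and 5.71 in M4 scramble.

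Of 19 antigen presentation genes, 4 were called lower (21.1%), beside 13.5% of all genes, and the other 15 were not called. HLA-DMB, a chaperone chain of class II loading, lay at 5.80, 6.47 and 6.13 in 22Rv1 + Dox against 9.68, 9.44 and 9.78 in M4 scramble (difference -3.50, SE 0.18, adjusted p = 2.12e-12). B2M, the shared light chain of class I, lay at 11.20, 11.48 and 10.39 against 12.29, 11.99 and 12.44 (difference -1.22), with another probe at -1.16. MICB, a stress ligand of natural killer cells, was lower (-1.90). Of 31 interferon response genes, 3 were higher (9.68%, beside 12.8% of all genes) and 6 lower (19.4%). PARP14 was at -1.17 among the falls and IFITM2 at 0.85 among the rises. MAGE genes and relatives had 6 of 33 lower (18.2%) and 1 higher (3.03%), with PRAME (-1.14) beside MAGEC2 among the falls.

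Of 20 neuronal genes, 7 were higher (35%) and 6 lower (30%), beside 12.8% and 13.5% of all genes. NPTX2, a secreted pentraxin of synapses, lay at 5.33, 5.48 and 5.46 in 22Rv1 + Dox against 9.21, 9.02 and 9.65 in M4 scramble (difference -3.87), opposite to BASP1 and CNTNAP2. CBLN2, a synapse organizer, lay at 5.38, 5.36 and 5.44 against 8.09, 7.83 and 7.99 (difference -2.57). Neuroendocrine genes had 4 of 17 higher and 4 lower (23.5% each). Peptide hormone genes had 7 of 19 higher (36.8%), led by NMB, and 3 lower (15.8%), or 5 lower without 22Rv1 Dox replicate 2. CALCA, the calcitonin gene, had a difference of -1.15. CGA, the shared alpha chain of glycoprotein hormones, was higher by 2.39, a call lost without background correction and with the deposited log2 matrix. HOX genes had 6 of 18 higher (33.3%) and 3 lower (16.7%), or 1 lower without 22Rv1 Dox replicate 1 or M4 scramble replicate 1. Among the rises, HOXC4 lay at 7.24, 7.00 and 7.27 in 22Rv1 + Dox against 5.45, 5.54 and 4.67 in M4 scramble (difference 1.95). Genes of p53 had 6 of 26 higher (23.1%) and 7 lower (26.9%), and 4 lower without 22Rv1 Dox replicate 1. AP-1 and ERK feedback genes had 5 of 28 higher (17.9%) and 4 lower (14.3%), near the 12.8% and 13.5% of all genes. Without 22Rv1 Dox replicate 3 or M4 scramble replicate 1, 3 were higher. MYC was higher by 0.76 (adjusted p = 0.00286), and DUSP6, a phosphatase that damps ERK, lower (-1.39).

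**Figure D5:**
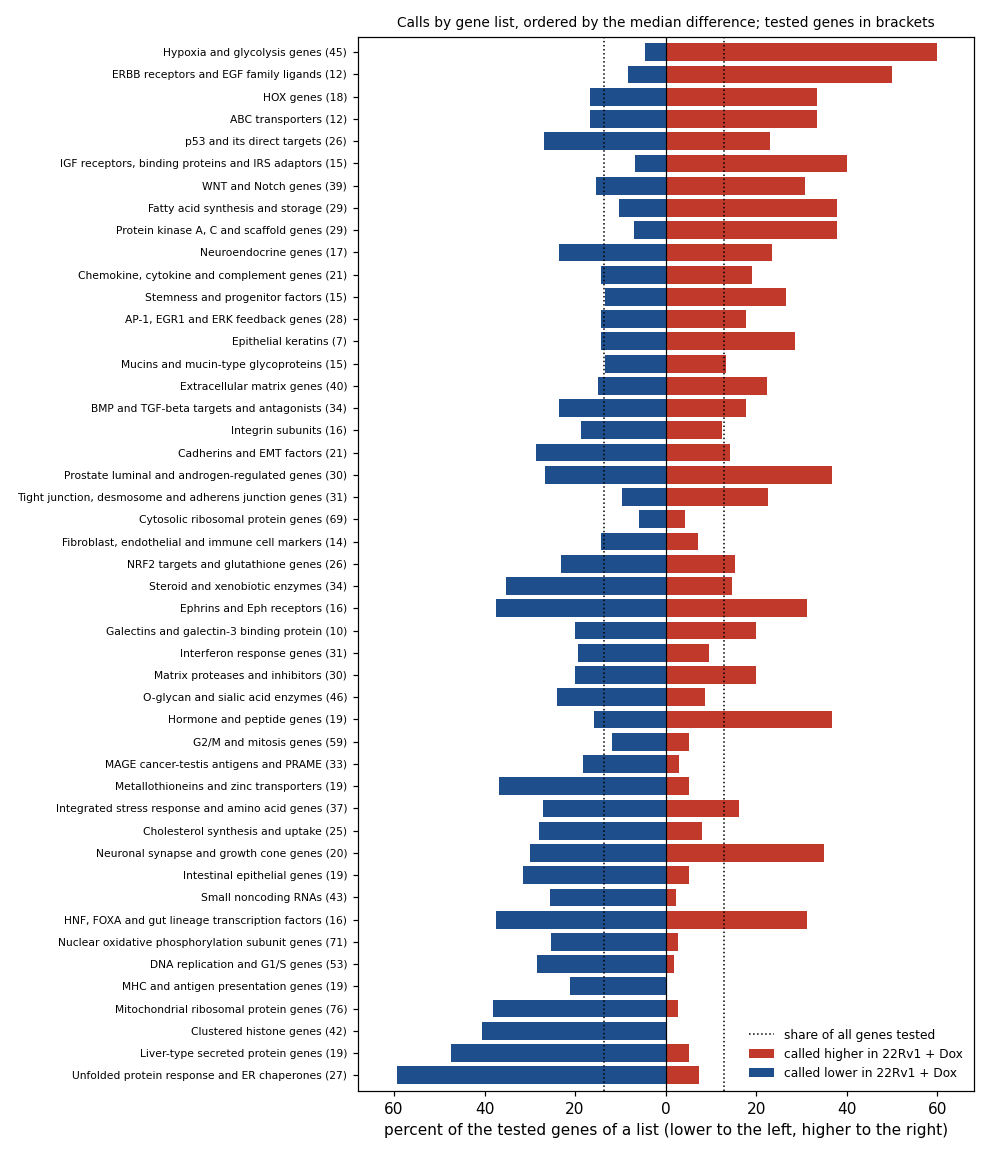
Percent of the tested genes of each of 47 lists called higher in 22Rv1 + Dox than in M4 scramble (red, right) or lower (blue, left), ordered by the median difference; dotted lines mark the shares of all genes tested, 12.8% higher and 13.5% lower. Hypoxia and glycolysis genes stand at the top with 60.0% higher, and unfolded protein response genes at the bottom with 59.3% lower.

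Along every chromosome examined, some genes were called higher and others lower. The median difference per chromosome lay between -0.06 on chromosome 12 and 0.06 on chromosome 8. On chromosome 8, 19.9% of genes were called higher and 9.43% lower, and on chromosome 12, 10.0% were higher and 19.4% lower. Of all genes, 12.8% were higher and 13.5% lower. Medians over 647 windows of 40 neighbouring genes, with 13636 genes placed, ranged from -0.26, between MAZ and FBRS on chromosome 16, to 0.25, between TSPYL6 and RAB1A on chromosome 2. No window thus had a median difference near 2-fold, but calls in some windows leaned to 1 side. Between TMEM176A and DYNC2I1 on chromosome 7, 12 of 40 genes were called higher and 0 lower. Between BTN2A1 and HCG4 on chromosome 6, 0 of 40 were higher and 8 lower. Both windows were picked from the 647, which overlap, after their counts were seen. The window on chromosome 6 holds clustered histone genes such as H2BC17, whose probes may share signal.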

How the data were processed

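Total RNA was made into biotin-labelled cRNA and read on Illumina bead arrays, per the labels' protocols. The authors deposited a table of linear, non-normalized intensities of 47303 probes, and each value came with a detection p-value, per the file headers. They also deposited a matrix of log2 values. Of its 851454 values, 114 differed by 0.01 or more from quantile-normalized log2 intensities, so it was used as an alternative. No label or header names the scanner software.

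Intensities were background-corrected and quantile-normalized by the neqc function (normexp on the detection p-values, offset 16) of limma 3.58.1, with statmod 1.5.0 under R 4.3.3. The offset shrinks differences of dim probes, and quantile normalization makes every difference relative to the bulk of genes. Probes with 1 gene symbol (30103) that were above background (detection p-value under 0.05) on 3 or more of 18 arrays were kept (18408), and the probe with the highest mean stood for each of 13680 genes. A further 8 probes with several symbols and 17192 with none were not analysed. Symbols came from GEO's platform annotation and were looked up by Entrez ID in RefSeq (GRCh38.p14) for 30064 probes, with 0 changed.

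All 18 arrays entered 1 limma fit with a mean per group (12 residual and 8.73 prior degrees of freedom), so that the 6 groups share the spread, and calls used a Benjamini-Hochberg adjusted p under 0.05. This fit was tested on simulated arrays with known differences. Their values were drawn independently for each array, without the within-group axis of the real arrays. That test therefore cannot show how the axis affects the p-values. Precision is limited by the number of arrays, which hold no counts. Groups came from the titles. The members and the 47 gene lists were chosen with earlier results of these data known, and lists are described by counts and medians without a test. Named genes were LGALS4, the 15 largest rises and 15 largest falls whose arrays did not overlap, up to 5 called members of a list with up to 2 in the opposite direction, and a set of genes given whether called or not. MT1X, MT3, SLC2A1, VEGFA and the glycolytic enzymes other than PFKP and ALDOC were named after their values were seen.

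No clear pairing of samples by the replicate numbers of the titles was seen. The correlation of same-numbered deviations from the group means exceeded 0.1 in 3 of 45 pairs, and lay between -0.33 and 0.19. With 3 arrays per group and a strong within-group axis, this check cannot exclude pairing. Alternatives covered background correction, normalization, detection filter, probe choice, arrays in the fit, array weights, prior variance, a replicate block, a within-group axis and leaving out each of the 6 arrays.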

Additional observations from a re-analysis of the deposited data

How the results depend on the processing

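All 18 alternatives kept the direction and the call of LGALS4, with differences between -6.70 and -5.26, and between -6.68 and -6.52 when single arrays were left out. Leaving out 1 array gave 2961 to 4119 called genes, 1337 to 2067 higher and 1466 to 2052 lower. By at least 2-fold, these fits called 332 to 466 genes higher and 340 to 419 lower. Without background correction, 113 genes were at least 2-fold higher and 124 lower, and with the deposited log2 matrix 112 and 124. The 6 arrays alone gave 2109 calls, 1035 higher and 1074 lower. On them, lower calls numbered 13 for the mitochondrial ribosome, 9 for oxidative phosphorylation, 7 for G1/S, 7 for O-glycan enzymes and 10 for histones. Array weights, whose estimation stopped before convergence, gave 5833, 2722 higher and 3111 lower. The replicate block gave 3434 calls and median scaling 3456, and no clear pairing by replicate number was seen. By the mean of their probes, ERBB3 (-0.047, adjusted p = 0.808) and KRT18 (-0.085, adjusted p = 0.712) turned sign, as did C1GALT1 with the deposited matrix (0.055, adjusted p = 0.703); the cause was not tested. Of 242 called genes followed, 195 stayed called under every alternative and 47 lost the call under at least 1. Other probes of genes called by at least 2-fold had the same sign as the probe used in 244 of 263 cases. The difference lay within 1 of that of the probe used for 177 of the 263. For 67 of the 263 it was under 0.25 in size, so these probes showed little of the difference called. Dim probes limit the precision, and genes below background in 1 group have only a bound.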
